A study of Mus musculus with 4 samples.

Results

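CD117-high progenitors of mouse bone marrow were compared between 1 control library and 1 library in which Mll3 had been deleted. Members were chosen by their own measured values, and no result below tests these. A barcode needed 500 genes, 1000 gene UMIs and no more than 10% mitochondrial UMIs, and a CD117 antibody count above 124. The limits were set with results of these data known. They left 4638 cells in control and 4244 cells in the Mll3-deleted library, 8882 of the 34398 barcodes of the series. The series holds 4 libraries of transplanted CD45.2+ Kit+ marrow taken 10 weeks after transplantation, namely this pair and 1 library each with Mll4 or both genes deleted. Transcripts and 13 surface antibodies were counted in the same cells with the 10x 3′ version 3.1 chemistry. The alleles, the deleted exons, the driver of deletion and the number of donors are not given in the sources used here. With 1 library per group no test between conditions is possible, so each difference is between 2 libraries and every interval covers counting error only.

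Both libraries were sequenced to a similar depth. Members held 124192981 gene UMIs in control and 126071075 in the Mll3-deleted library, with medians of 20135.5 and 21841.5 UMIs per cell. They made up 59.7% of the quality-filtered cells in control and 66.9% in the Mll3-deleted library. In the 10 counts just below the antibody limit lay 188 control and 102 Mll3-deleted cells, with medians of 16965 and 18646.5 UMIs. In the 10 counts just inside it lay 165 and 124 cells, with medians of 19910 and 17903.5 UMIs. The median CD117 count of members was 247 in control and 297 in the Mll3-deleted library, a value that the choice of cells used. A pair of hashtag antibodies split each library, and the labels do not say what they mark. Hashtag 1 alone marked 2302 control and 2358 Mll3-deleted cells, and hashtag 2 alone marked 2084 and 1541. The hashtag sets are given below as parts of a library and not as replicates. Both hashtags were present on 5.41% of control and 8.08% of Mll3-deleted members, and these possible doublets were kept. The 2 libraries shared 22 barcodes, of which 4 were members in both.

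CD117 is the receptor for stem cell factor, encoded by Kit, and marks stem cells and early progenitors of the blood. Mll3, encoded by Kmt2c, is a large histone methyltransferase. Together with its relative Mll4, encoded by Kmt2d, it marks enhancers by monomethylation of lysine 4 on histone H3. Both proteins work in complexes with the demethylase Utx and a set of shared scaffold subunits. Kit transcripts stood at 125.5 CPM (UMI counts scaled to a common total of member gene UMIs) in control and 122.003 CPM in the Mll3-deleted library, so the cells of both libraries carried the transcript of the marker by which they were chosen.

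Kmt2c was examined first as a check of the label. The gene (ENSMUSG00000038056) lies on the minus strand of chromosome 5 from 25271798 to 25498783 in GENCODE M21. It was at 46.0 CPM in control against 24.7 CPM in the Mll3-deleted library, from 5714 and 3117 UMIs, a log2 ratio of -0.87 (95% counting interval -0.96 to -0.83). Ratios carry a pseudocount of 1 CPM, and their intervals, exact for the 2 counts, carry none. The hashtag sets did not overlap, at 46.1 and 44.998 CPM in control against 19.6 and 31.2 CPM in the Mll3-deleted library. Hashtag 2 of the Mll3-deleted library was thus nearer to control than hashtag 1. A 3′ count outside the deleted part of a gene need not fall, so the remaining transcript does not measure remaining protein.

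Other subunits of the complex differed less. Kmt2d was at 24.2 and 20.8 CPM (log2 ratio -0.21). Kdm6a, which encodes Utx, had a log2 ratio of -0.10, and the subunits Ncoa6 and Paxip1 had -0.04 and -0.14. The shared core subunits Wdr5, Rbbp5, Ash2l and Dpy30 had log2 ratios of -0.09, 0.03, -0.03 and 0.04. Of the tested genes within 20 Mb of Kmt2c, 3 (2.4%) were past 1.5-fold, namely Kmt2c, Abcb1b and Fgl2, beside 2.28% of all genes. Pagr1a was below the minimum level of 5 CPM, taken as the mean of both libraries. Of the 9 complex genes that passed this minimum, Kmt2c was the 1 member past 1.5-fold.

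Over all genes, scaled to total counts, the Mll3-deleted library had more lower than higher transcripts. Among 9039 genes past the minimum level, 164 (1.81%) were at least 1.5-fold lower and 42 (0.465%) at least 1.5-fold higher, together 206 genes (2.28%). At least 2-fold were 31 and 14 of them. Counting differences of any size, 6124 genes (67.8%) were lower and 2915 (32.2%) higher, with a median log2 ratio of -0.06 over all 9039 genes. The split by direction depends on the scaling, since TMM factors, an alternative scaling, were 1.026 in control and 0.975 in the Mll3-deleted library. They would raise every ratio, and the shares by direction here and below use total counts only. The hashtag sets of the 2 libraries did not overlap for 158 of the 164 lower genes and for 40 of the 42 higher genes. Over all genes the same held for 45.3% in the lower direction and 15.3% in the higher direction. The 206 genes were chosen by the ratio of the same cells. Between the 2 hashtag sets of 1 library, 24 genes differed by 1.5-fold or more in control and 121 in the Mll3-deleted library.

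**Figure D1:**
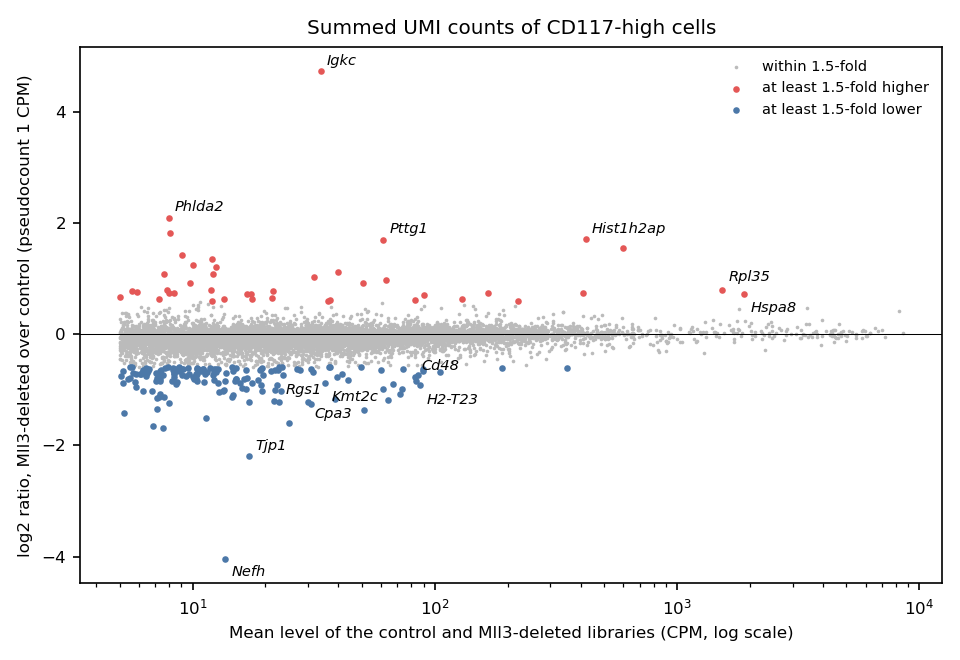
Each point is a gene past the minimum of 5 CPM, by its mean level in the control and Mll3-deleted libraries (x axis, CPM, log scale) and its log2 ratio (y axis). Blue and red points are the 164 lower and 42 higher genes, and most of them lie at low levels. Xist is not drawn.

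The most reduced transcript was Nefh, the heavy neurofilament chain, on chromosome 11 from 4938754 to 4948064. It was at 26.6 CPM in control against 0.674 CPM in the Mll3-deleted library, a log2 ratio of -4.04 from 3304 and 85 UMIs. Both control hashtag sets (30.7 and 23.4 CPM) were far above both Mll3-deleted sets (0.517 and 0.994 CPM). Nefh was also at 0.581 CPM in the Mll4-deleted library and 2.77 CPM in the Mll3/4-deleted library. Tjp1, which encodes the junction scaffold ZO-1, lies on chromosome 7 from 65296165 to 65527781. It was at 28.7 CPM in control against 5.47 CPM in the Mll3-deleted library, a log2 ratio of -2.20. Its hashtag sets were at 30.6 and 27.5 CPM against 2.25 and 10.3 CPM, so the lowered sets themselves differed. Tjp1 stood at 19.8 CPM in the Mll4-deleted library and 0.393 CPM in the Mll3/4-deleted library.

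The other most reduced genes encode proteins of varied kinds. Ptger3, a prostaglandin E2 receptor, was at 17.2 and 5.46 CPM (log2 ratio -1.50), and its hashtag sets were at 17.3 and 17.1 against 4.70 and 6.64 CPM. Rgs1, a regulator that shortens G-protein signalling, was at 32.3 and 13.3 CPM (-1.22). Gcnt1, an enzyme that branches O-linked sugar chains, was at 11.6 and 4.33 CPM (-1.25). Clec4e, a pattern recognition lectin, was at 10.7 and 3.61 CPM (-1.35), and Pcdh7, a protocadherin, at 11.0 and 2.83 CPM (-1.64). Scin, which severs actin filaments, was at 12.1 and 3.05 CPM (-1.69), and Gm2a, a lysosomal cofactor for ganglioside breakdown, at 44.1 and 17.8 CPM (-1.26). The other members of the 12 lowest genes were Cpa3, described with the mast cell genes, and the retrocopies Nutf2-ps1 and Rps27rt. The hashtag sets did not overlap for any of the 12 lowest genes, which were chosen by the ratio of the same cells, beside 45.3% of all genes.

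Hashtag 2 of the Mll3-deleted library was less reduced than hashtag 1 for many of these genes. It was above hashtag 1 for 70.1% of the 164 lower genes and for 10 of the 12 lowest, against 39.3% of all tested genes. In control, hashtag 2 was above hashtag 1 for 31.7% of the 164 genes, against 41.5% of all tested genes. The median log2 ratio of the 164 genes was -0.88 within hashtag 1 and -0.64 within hashtag 2. The genes were chosen by the pooled ratio of the same cells. Hashtag 1 had more of the Mll3-deleted cells, 2358 against 1541, so this order is not independent of the choice. Scin was at 2.36 CPM in hashtag 1 and 4.37 CPM in hashtag 2 of the Mll3-deleted library, and Rgs1 was at 10.8 and 18.4 CPM. The retrocopies did not show this order, with Nutf2-ps1 at 12.6 and 11.7 CPM and Rps27rt at 28.9 and 28.1 CPM. Whether the hashtag sets carried the deletion to the same extent was not tested.

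**Figure D2:**
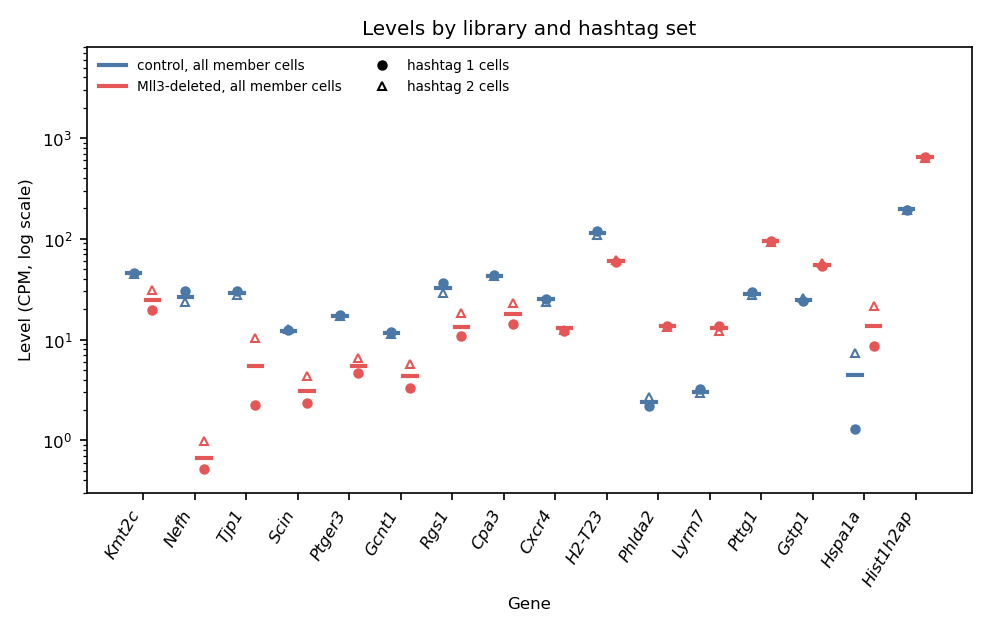
Levels of 16 genes (CPM, log scale) in control (blue) and Mll3-deleted (red) members, with bars for all members and circles and triangles for the cells of hashtag 1 and hashtag 2. For Kmt2c, Tjp1, Rgs1 and Cpa3 the red triangle lies above the red circle, and both lie below the control values.

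Among the higher genes, Phlda2, an imprinted pleckstrin-domain gene on chromosome 7 from 143501545 to 143503150, went from 2.40 to 13.6 CPM (log2 ratio 2.10). Its hashtag sets were at 2.21 and 2.66 CPM in control and 13.8 and 13.3 CPM in the Mll3-deleted library. Pttg1, which encodes securin, the protein that holds back sister chromatid separation, was at 28.3 and 94.4 CPM (1.703). Its hashtag sets were at 29.8 and 27.4 CPM against 95.05 and 92.0 CPM. Lyrm7, an assembly factor of respiratory complex III, was at 2.995 and 13.2 CPM (1.83). Gstp1, a glutathione transferase, was at 24.8 and 55.1 CPM (1.12), and the endosomal adaptor Wdfy1 at 7.44 and 16.8 CPM (1.08). In all 5 of these genes the 2 hashtag sets of a library lay close together and far from those of the other library. Prss50, a protease gene, was at 7.10 and 17.8 CPM (1.22), and Arhgdig at 4.57 and 10.7 CPM (1.08). Hoxb2 was at 5.75 and 10.2 CPM (0.73) and was the 1 member of 8 measured Hox-group genes past 1.5-fold, beside 2.28% of all genes.

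Histone transcripts made up 6 of the 42 higher genes and 1 of the 164 lower genes. Hist1h2ap was at 195 and 643 CPM (log2 ratio 1.71), and Hist1h2ae at 308 and 512 CPM (0.73). Replication-dependent histone genes are near-identical copies, and how the counting split reads among them is not given in the sources used here. The same uncertainty touches Hspa1a and Hspa1b, Rnaset2a and Rnaset2b, Rpl35 and the genes named as pseudogenes or retrocopies. Predicted gene models made up 5 of the higher and 11 of the lower genes. How many histone genes or predicted models were among all tested genes was not counted, so these numbers show no excess.

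Heat shock genes were higher as a group. Of 12 list members, all past the minimum, 3 were at least 1.5-fold higher, beside 0.465% of all genes. None was 1.5-fold lower, and the median log2 ratio was 0.21 beside -0.06 over all genes. Hspa8, the constitutive Hsp70, was at 1423 and 2362 CPM (0.73). Hspa1a, an inducible Hsp70, was at 4.42 and 13.6 CPM (1.43), with hashtag sets at 1.30 and 7.43 CPM in control against 8.64 and 21.3 CPM in the Mll3-deleted library. The lower Mll3-deleted set thus lay just above the higher control set. Hspa1b was at 6.35 and 17.7 CPM (1.35), with sets at 2.64 and 10.0 CPM against 13.2 and 24.3 CPM. In the Mll4-deleted library Hspa1a was at 40.9 CPM, and in the Mll3/4-deleted library at 2.43 CPM.

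The largest increase, of the antibody light chain gene Igkc, rested on very few cells. Igkc was at 1.53 CPM in control against 66.1 CPM in the Mll3-deleted library, where 10 cells held 97.2% of its 8330 UMIs. A single cell of hashtag 2 held 7331 of them, and without it Igkc was at 7.93 CPM, beside 1.18 CPM in control without its own top cell. The same cell held 40.9% of the UMIs of the antibody heavy chain gene Ighm, which was at 20.5 and 42.9 CPM over all members. Without the top cell of each library Ighm was at 20.1 and 25.3 CPM. Its B220 antibody count was 13, below the B220 threshold of 32 counts, so leaving out B220-positive cells kept it in. The summed level of the 10 mature B cell markers was 5.39 CPM in control against 79.2 CPM in the Mll3-deleted library, and Igkc was the 1 marker past the minimum level.

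Mast cell and basophil genes had the lowest median of the lists with at least 5 measured members. All 9 members past the minimum were lower, 5 of them by at least 1.5-fold, with a median log2 ratio of -0.68 beside -0.06 over all genes. Over all genes, 1.81% were lower by that much. For all 9 the hashtag sets of the libraries did not overlap, beside 45.3% of all genes in this direction. The other 6 of 15 members were under the minimum. Cpa3, mast cell carboxypeptidase, was at 42.4 and 17.8 CPM (-1.21), with hashtag sets at 44.0 and 42.5 against 14.4 and 23.2 CPM. Mcpt8, a basophil protease, was at 18.3 and 8.53 CPM (-1.02), and Ms4a2, the beta chain of the IgE receptor, at 9.42 and 4.16 CPM (-1.02). Il1rl1, the IL-33 receptor, was at 14.4 and 8.59 CPM (-0.68), and Cyp11a1 at 6.997 and 3.37 CPM (-0.87). Gata2, which encodes a transcription factor of stem cells and mast cells, was at 70.7 and 51.0 CPM (-0.46). In the Mll4-deleted library Cpa3 was at 366 CPM and in the Mll3/4-deleted library at 5.55 CPM. Cpa3 UMIs came from 1005 control and 411 Mll3-deleted cells, 21.7% and 9.68% of members, at the median depths given above and without thinning to a common depth. For the other genes of the list, summed levels were not split into numbers of cells and RNA per cell.

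The promoters of 3 lowered mast cell and basophil genes are shown because these genes moved together. Each is the 150 bases before the RefSeq start on GRCm38.p6, in the direction of the gene. Capitals mark AGATAA, the core bound by GATA factors, and TGTGGT, the core bound by RUNX factors, on either strand.
Cpa3, chr3:20242182-20242331, minus strand: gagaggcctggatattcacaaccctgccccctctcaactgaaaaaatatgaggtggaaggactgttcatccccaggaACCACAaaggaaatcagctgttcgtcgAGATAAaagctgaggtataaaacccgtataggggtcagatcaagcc
Ms4a2, chr19:11623720-11623869, minus strand: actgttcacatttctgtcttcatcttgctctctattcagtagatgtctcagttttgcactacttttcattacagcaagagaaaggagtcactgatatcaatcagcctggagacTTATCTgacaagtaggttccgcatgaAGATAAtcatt
Mcpt8, chr14:56085198-56085347, minus strand: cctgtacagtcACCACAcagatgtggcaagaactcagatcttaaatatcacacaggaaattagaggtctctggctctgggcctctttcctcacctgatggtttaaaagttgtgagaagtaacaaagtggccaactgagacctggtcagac
Cpa3 held 1 AGATAA and 1 TGTGGT in this window, Ms4a2 held 2 AGATAA, and Mcpt8 held 1 TGTGGT. Over 250 bases before the start, AGATAA was found on either strand in 4 of 15 promoters of the 9 measured list genes. They belonged to Cpa3, Ms4a2 and Il1rl1, the last with both of its promoters, and those of the other list genes held none. Over all 32851 RefSeq promoters the share was 9.99%. It was 5.52% of the 9231 promoters of tested genes, 11.5% of the 157 promoters of lower genes and 0 of the 27 promoters of higher genes. For TGTGGT the shares were 10.6% of tested, 16.6% of lower and 25.9% of higher genes' promoters. RefSeq promoters were matched by symbol for 7276 of the 9039 tested genes, and a match of 6 letters is a description, not a bound site.

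Immediate early genes, which respond to stimulation within minutes, had a median log2 ratio of -0.48, beside -0.06 over all genes. Of 20 members 14 passed the minimum. At least 1.5-fold lower were 5 of them, beside 1.81% of all genes, and 12 were lower by any size, beside 67.8%. Jun was at 73.3 and 46.8 CPM (-0.64), Fos at 9.68 and 5.39 CPM (-0.74), and Ier5 at 15.7 and 9.42 CPM (-0.68). Egr1 and Fosb had ratios of 0.05 and 0.10. The hashtag sets were unequal here as well, since the median of the list was -0.57 within hashtag 1 and -0.19 within hashtag 2. Fos was at 3.13 CPM in hashtag 1 and 8.99 CPM in hashtag 2 of the Mll3-deleted library, beside 9.91 and 9.42 CPM in control.

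Genes for homing and adhesion had a median log2 ratio of -0.30 over 13 measured members. At least 1.5-fold lower were 3 of them, beside 1.81% of all genes, and none was higher. Cxcr4, the chemokine receptor that holds stem cells in the marrow, was at 25.3 and 12.9 CPM (-0.92). Its hashtag sets were at 25.5 and 23.7 CPM in control and 12.2 and 12.6 CPM in the Mll3-deleted library, with no overlap. Itgal, an integrin chain, was at 14.2 and 8.26 CPM (-0.72), and the chemokine receptor Ccr2 at 9.22 and 5.55 CPM (-0.64). Itgb1 was at 122 CPM in both libraries. MHC class I genes, which present peptides on the surface, were lower in all 14 members, beside 67.8% of all genes, with a median of -0.23 beside -0.06. H2-T23 was the 1 member past 1.5-fold, at 114 and 59.7 CPM (-0.92), and B2m, the shared light chain, was at 933 and 750.2 CPM (-0.31). Among cytokine receptors, 1 of 15 measured members was past 1.5-fold, Flt3, at 13.2 and 8.06 CPM (-0.65). Lower by any size were 13 of the 15, with a median of -0.14. Among myeloid transcription factors, receptors and markers, Cebpa was the 1 of 13 past 1.5-fold, at 18.2 and 11.1 CPM (-0.67). Lower by any size were 12 of the 13, with a median of -0.18. Over all genes 2.28% were past 1.5-fold and 67.8% were lower by any size.

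The makeup of the CD117-high cells by surface antibodies differed mainly in the CD41+ gate. CD41, the integrin of megakaryocytes and platelets, is encoded by Itga2b. Cells that were CD41+ but negative for Sca-1 and CD16/32 made up 18.7% of control members (95% exact binomial interval 17.6 to 19.9) and 9.50% of Mll3-deleted members (8.63 to 10.4), a log2 ratio of shares of -0.98. By hashtag set the shares were 21.6% and 16.7% in control and 9.75% and 10.3% in the Mll3-deleted library, with no overlap. The remaining 4 gates were each slightly larger in the Mll3-deleted library. Sca-1+ cells, which include the stem cells, were 19.9% and 22.2%, and CD16/32+ cells, which carry the Fc receptors of granulocyte and monocyte progenitors, were 25.6% and 27.7%. Cells negative for these markers were 11.0% and 12.2% with CD150 and 24.7% and 28.4% without it. With thresholds fitted in each library, the Sca-1+ share turned from larger to smaller, with a log2 ratio of -0.04.

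**Figure D3:**
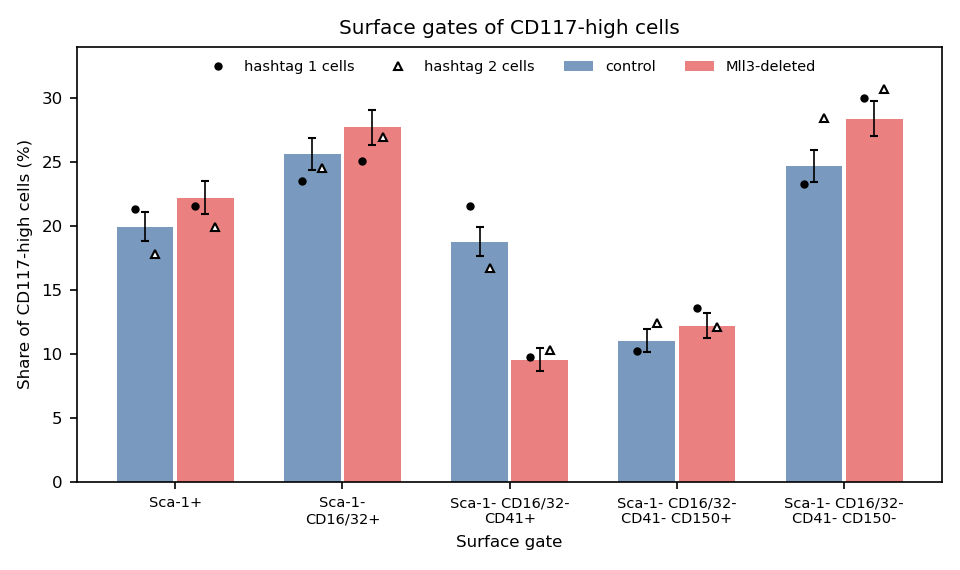
Bars give the share of CD117-high cells in each of 5 exclusive surface gates (y axis, percent) in control (blue) and the Mll3-deleted library (red), with 95% exact binomial intervals. Circles and triangles are the hashtag 1 and hashtag 2 cells. The CD41+ gate is 18.7% in control and 9.50% in the Mll3-deleted library.

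The gates held the transcripts that mark them. In control, Hlf, a stem cell transcription factor, was at 212 CPM in Sca-1+ cells. Elane, neutrophil elastase, was at 5413 CPM in CD16/32+ cells, and Pf4, platelet factor 4, was at 1015 CPM in CD41+ cells. Klf1, an erythroid transcription factor, was at 138 and 175 CPM in the CD41- gates with and without CD150. Each of these was higher there than in the other gates of control. In the Sca-1+ gate 121 genes (1.25%) were at least 1.5-fold higher and 363 (3.76%) lower, and in the CD41+ gate 88 (0.954%) and 370 (4.01%). The counts were 63 (0.698%) and 170 (1.88%) in CD16/32+ cells. They were 106 (1.23%) and 138 (1.6%) in CD41- CD150+ cells, and 47 (0.554%) and 211 (2.49%) in CD41- CD150- cells. Lower genes outnumbered higher genes in each gate.

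Megakaryocyte genes had a median log2 ratio of -0.30 over all members and of 0.25 within the CD41+ gate. Over all members, 10 of 13 measured genes were lower, beside 67.8% of all genes, and 2 were at least 1.5-fold lower, beside 1.81% of all genes. Gp5, a chain of the platelet receptor for von Willebrand factor, was at 20.6 and 10.8 CPM (-0.87), and Selp, P-selectin, at 17.2 and 10.2 CPM (-0.70). Within gates the median of the list was -0.34 in Sca-1+ and 0.07 in CD16/32+ cells. It was 0.52 and -0.78 in the CD41- cells with and without CD150. The minimum level, applied within each gate, left 14 list genes in Sca-1+, 12 in CD16/32+ and 16 in CD41+ cells. In the CD41- cells it left 9 with and 5 without CD150, so these medians do not rest on the same genes. With the gates of both libraries weighted by their shares in control, the median turned to 0.18. Pf4 was at 187 and 207 CPM over all members, while in CD16/32+ cells it was at 108 and 280.1 CPM and in CD41+ cells at 1015 and 1365 CPM. Itga2b itself was at 143 CPM in the CD41+ cells of both libraries, beside 33.3 and 23.3 CPM over all members.

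Sca-1+ cells differed in their transcripts as well. Within them Hlf was at 212 and 138 CPM, Procr, the gene of the stem cell marker CD201, at 21.7 and 12.02 CPM, and Ly6a, which encodes Sca-1, at 59.8 and 41.0 CPM. Elane was at 221 and 632 CPM and Car1, an erythroid carbonic anhydrase, at 377 and 714 CPM. The median of the erythroid list in this gate was 0.84, beside 0.13 over all members. At least 1.5-fold higher were 12 of 19 measured genes, beside 1.25% of all genes in the gate. The list median was 0.49 in CD16/32+ and 0.11 in CD41+ cells. It was -0.21 and 0.04 in the CD41- cells with and without CD150, the gates with the most Klf1. Within hashtag 1 the median in Sca-1+ cells was 0.33, with 4 of 19 genes past 1.5-fold. Within hashtag 2 it was 0.39, with 6 of 19. These values moved with cells that carried both hashtags, 63 of 925 Sca-1+ cells in control (6.81%) and 128 of 943 in the Mll3-deleted library (13.6%). Within hashtag 1 alone, Elane was at 144 and 349 CPM and Hlf at 218 and 182 CPM. Within hashtag 2 alone, Elane was at 224 and 395 CPM and Hlf at 235 and 148 CPM. The primary granule genes and their regulators had a median of 0.27 in Sca-1+ cells, with 6 of 16 measured genes lower. Within hashtag 1 this median was -0.20, with 10 of 16 lower, and within hashtag 2 it was 0.28, with 6 of 16 lower. The share of all genes lower by any size was not counted in these cells. The median of the stem cell list was -0.33 in Sca-1+ cells, and -0.20 and 0.03 within the hashtag sets. Kmt2c was lower by each of these settings, at 65.9 and 32.4 CPM in all Sca-1+ cells.

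By CD150 and CD48, the Sca-1+ cells shifted toward CD48- cells in the Mll3-deleted library. The CD150+ CD48- subset, in which long-term stem cells are found, made up 24.2% of Sca-1+ cells in control (95% interval 21.5 to 27.1) against 31.2% in the Mll3-deleted library (28.2 to 34.2). With the Sca-1, CD150 and CD48 thresholds all fitted in each library it made up 24.2% and 25.5%. The CD48 threshold was then 264 counts in control and 191 counts in the Mll3-deleted library, those of Sca-1 32 and 41 and those of CD150 14 and 17.

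Differences that held in every gate were counted among the 8103 genes with a mean of at least 5 CPM in each. At least 1.5-fold lower in all 5 gates were 25 genes (0.309%), and at least 1.5-fold higher were 19 genes (0.234%). Of these, 6 and 8 were pseudogenes, retrocopies, histone genes or predicted models by name. How many such names were among the 8103 genes was not counted, so these numbers show no excess. Tjp1 had log2 ratios from -2.48 to -1.60 over the 5 gates. Gcnt1, Ptger3, Rgs1, Cxcr4 and Kmt2c were also lower in all 5, and Kmt2c ranged from -0.999 to -0.72. Cyfip2, a subunit of the WAVE complex that drives actin assembly, was at 53.8 and 23.3 CPM over all members (-1.17). Its ratio was -1.80 and -2.08 in the CD41- gates and between -0.95 and -0.83 in the other gates. Higher in all 5 gates were Lyrm7, Pttg1, Gstp1, Wdfy1, Hspa1a, Hspa1b and Hspa8, with Polr2l, a small subunit shared by RNA polymerases, at 42.2 and 83.9 CPM. Nefh, with a mean under 5 CPM in CD16/32+ cells, was not among the genes counted, but its log2 ratio was between -4.64 and -2.95 in every gate.

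**Figure D4:**
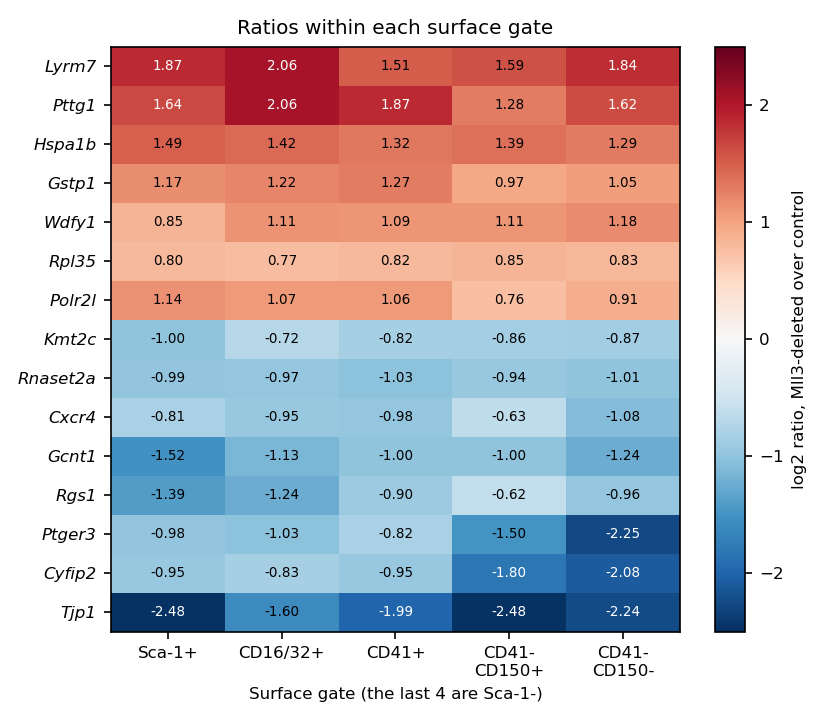
Log2 ratios (colour and printed values) of 15 genes within each of the 5 surface gates (columns). The genes were taken from those past 1.5-fold in all 5 gates, so their shared direction follows from this choice. The 7 upper genes are higher and the 8 lower genes, with Kmt2c first, are lower in every gate. Tjp1 has the lowest value in 4 gates and Ptger3 in CD41- CD150- cells.

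CD48 was lower both on the surface and as a transcript. CD48 is a surface protein of the signalling lymphocytic activation molecule family that is absent from long-term stem cells. Its median antibody count was 646 in control and 482 in the Mll3-deleted library. By hashtag set it was 642.5 and 623.5 in control against 478.5 and 427 in the Mll3-deleted library, with no overlap. Cells above the CD48 threshold were 85.8% (84.8 to 86.8) and 74.1% (72.8 to 75.4). The Cd48 transcript was at 104.7 and 61.2 CPM, a log2 ratio of -0.76 (-0.82 to -0.73), with hashtag sets at 101.5 and 112 CPM against 63.1 and 60.2 CPM. Both measures were lower in all 5 gates. The transcript ratio ran from -1.03 in CD41+ cells to -0.46 in CD16/32+ cells, and the antibody medians there were 667 and 438 and 792 and 656 counts.

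CD34, a sialomucin of stem and early progenitor cells, had a lower transcript, while its antibody median was nearly level. The Cd34 transcript was at 109 and 69.0 CPM, a log2 ratio of -0.65 (-0.70 to -0.62), with hashtag sets at 117 and 104 CPM against 70.4 and 70.7 CPM. The median antibody count was 14 in control and 15 in the Mll3-deleted library, and 42.5% and 43.7% of cells were above the threshold. Cells above it had a median of 43 and 60 counts. In Sca-1+ cells the transcript was at 258 and 156 CPM while the antibody median was 39 and 51 counts. In CD41+ cells the transcript was at 142 and 61.4 CPM and the antibody median 12 and 15 counts. Several other antibodies had somewhat higher counts in the Mll3-deleted library, also among cells below their thresholds, such as Sca-1 at a median of 8 and 11 counts and B220 at 4 and 7. The part of such background in the antibody medians was not tested.

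The 150 bases before the RefSeq starts of Cd48 and Cd34 are shown because both transcripts were lower while their antibodies differed. Capitals again mark AGATAA and TGTGGT, and also GGAAGT, a core bound by ETS factors, on either strand.
Cd48, chr1:171681842-171681991, plus strand: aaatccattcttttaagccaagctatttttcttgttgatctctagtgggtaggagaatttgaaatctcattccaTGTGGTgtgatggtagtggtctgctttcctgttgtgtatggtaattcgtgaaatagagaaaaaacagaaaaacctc
Cd34, chr1:194938671-194938820, plus strand: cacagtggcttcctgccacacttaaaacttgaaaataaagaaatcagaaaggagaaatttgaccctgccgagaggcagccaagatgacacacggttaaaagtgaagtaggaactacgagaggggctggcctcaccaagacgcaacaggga
Cd48 held 1 TGTGGT in this window, and none of the 3 motifs was found in that of Cd34. GGAAGT was found in 25.01% of tested genes' promoters over 250 bases and in 19.1% of those of lower genes.

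CD41 was lower on the surface over all members, with a median of 9 counts in control and 4 in the Mll3-deleted library. Cells above the threshold were 38.8% (37.4 to 40.2) and 22.997% (21.7 to 24.3). By hashtag set they were 43.4% and 32.3% in control and 19.3% and 25.9% in the Mll3-deleted library, which did not overlap. Among the cells above the threshold the median count was 31 in control and 32 in the Mll3-deleted library. The share of CD150+ cells was 34.8% and 35.4%, with overlapping intervals. Cells above the Gr1 threshold were 10.1% and 15.2%, and cells above the CD16/32 threshold 29.7% and 34.6%. By hashtag set, the Gr1 shares were 8.12% and 7.97% in control against 11.7% in each Mll3-deleted set. With thresholds fitted in each library the CD16/32 shares were 29.7% and 31.4%. The transcript paired with this antibody, Fcgr3, was lower, at 30.9 and 24.9 CPM (-0.30).

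Few genes of the other lineage lists and of the cell cycle were past 1.5-fold over all members. Of 21 measured erythroid genes 16 were higher, beside 32.2% of all genes. None was higher by 1.5-fold, and the median log2 ratio was 0.13. The adult beta globins Hbb-bt and Hbb-bs went the other way, at 26.3 and 12.4 CPM (-1.02) and 10.8 and 5.61 CPM (-0.84), and the hashtag sets of Hbb-bs overlapped. None of 16 measured primary granule genes and their regulators passed 1.5-fold, with a median of -0.13, and Elane was at 1408 and 1440 CPM. S phase genes had a median of -0.01 over 20 genes, 10 higher and 10 lower. G2/M genes had a median of 0.09, and 17 of 20 were higher, beside 32.2% of all genes. None of the 20 was past 1.5-fold. Stem cell genes had a median of -0.14 over 12 measured members, none past 1.5-fold, and 8 of 20 members were under the minimum. Lymphoid genes had a median of -0.28, with 13 of 14 measured genes lower, beside 67.8% of all genes. Past 1.5-fold, beside 2.28% of all genes, were Flt3, lower, and Ighm, higher, with 40.9% of its UMIs in the 1 cell described above.

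**Figure D5:**
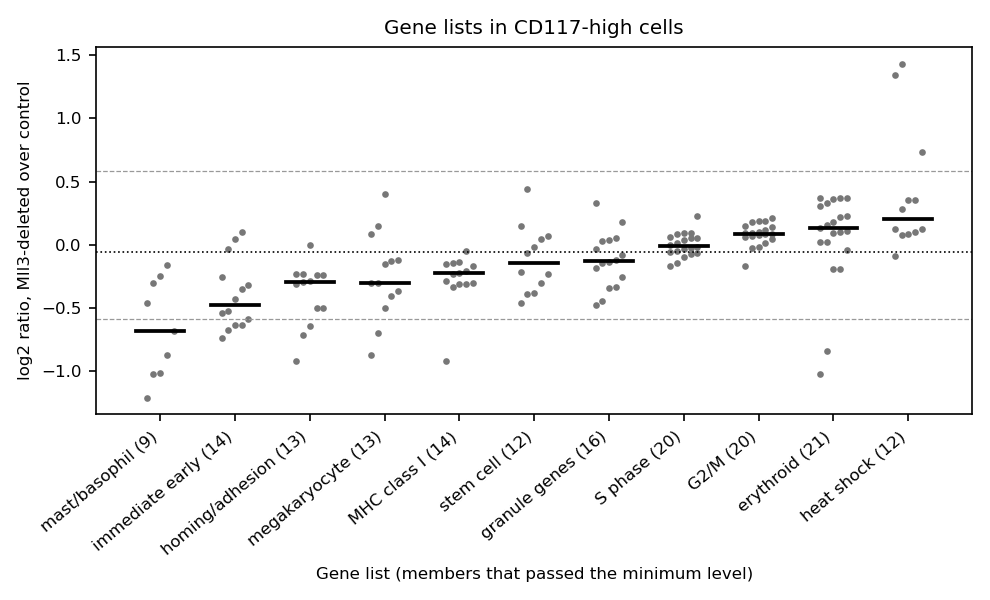
Each point is the log2 ratio of a list gene past the minimum level, with the number of genes in brackets. Black bars are list medians, the dotted line is the median of all genes (-0.06) and dashed lines mark 1.5-fold. Mast and basophil genes have the lowest median (-0.68) and heat shock genes the highest (0.21).

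Markers of other cell types that could be present were followed as summed levels. The 12 T and NK cell markers summed to 11.5 and 7.31 CPM and none passed the minimum. The 10 stromal and endothelial markers summed to 36.9 and 28.6 CPM, with 2 past the minimum. The 12 late neutrophil markers summed to 10025 CPM in control against 9263 CPM in the Mll3-deleted library. In the hashtag sets they summed to 6980 and 6011 CPM in control and 3989 and 8141 CPM in the Mll3-deleted library, so hashtag 2 held the higher level there. In each library the sum over all members lay above both hashtag sets, which leave out the cells with both hashtags. No marker of these lists was at 0 in both libraries. Their part in the differences between hashtag sets was not tested. Xist was near 1000 CPM in both hashtag sets of both libraries, from 998 to 1146 CPM.

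Outside the CD117-high cells, among quality-filtered cells with no more than 124 CD117 counts, the same genes were measured again in the same 2 libraries. Of the 12 lowest genes 11 were at least 1.5-fold lower there, and all of the 12 highest were at least 1.5-fold higher. The share of all genes past 1.5-fold in these cells was not counted, so these numbers stand without a comparison. Nefh had a log2 ratio of -3.23 and Tjp1 of -1.93 in these cells, while Gm2a had -0.46. Kmt2c had -0.49. These cells come from the same libraries and are no replicate.

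In the other deleted libraries, which share the control, levels of the leading genes went in different ways. Pttg1 was at 95.8 CPM in the Mll4-deleted and 92.1 CPM in the Mll3/4-deleted library, beside 94.4 CPM in the Mll3-deleted library and 28.3 CPM in control. Hist1h2ap was at 1031 CPM in the Mll4-deleted and 317 CPM in the Mll3/4-deleted library. Ptger3 was at 12.4 and 0.126 CPM, Rgs1 at 62.0 and 1.87 CPM, and Cxcr4 at 47.8 and 26.8 CPM in these 2 libraries. Phlda2 was at 5.09 and 0.0562 CPM. Kmt2c was at 56.8 CPM in the Mll4-deleted library and 34.6 CPM in the Mll3/4-deleted library, above the 24.7 CPM of the Mll3-deleted library. The Mll4-deleted library also had Xist at 0.484 CPM, which sets it apart from control in sex. Members of those libraries had lower median depths, of 6761 and 10558 UMIs.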

How the data were processed

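Single-cell transcripts and surface antibodies were read from the authors' deposited matrices of UMI counts, not normalized, with 32285 genes and 15 antibody features. Counts were made with Cell Ranger 6.1.2 on mm10, per the submitters' processing notes; the annotation release and cell-calling settings are not given in the sources used here. Counts were summed over member cells and scaled to CPM. Log2 ratios used a pseudocount of 1 CPM, and genes with a mean of at least 5 CPM were compared; a gene counted as higher or lower from 1.5-fold. No test was run, since each group has 1 library. Intervals (95%) are exact Poisson, conditional binomial or Clopper-Pearson and cover counting error only. The measure was tested on simulated data.

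Antibody thresholds were crossing points of a 2-component Gaussian mixture in control members (scikit-learn 1.9.0, Python 3.11.15); thresholds under 5 counts (CD201, CD127, CD135) were not used. No doublet caller was run and doublets were kept, with their removal by hashtags or by UMIs as alternatives. Counts were not corrected for free RNA. Named genes were the complex members, the 12 highest and 12 lowest ratios without predicted models, mitochondrial genes, Xist and Y-linked genes, the 2 highest and lowest of each list, and up to 12 genes each way past 1.5-fold in every gate; further list members are named as examples and were chosen after their values were seen. A gene that the rule named is not reported here. Members, lists, rules and alternatives were chosen with earlier results of these data known. TMM scaling (edgeR 4.0.16, R 4.3.3) was an alternative scaling. Gene positions are from GENCODE M21, which held 32158 of the 32285 identifiers, and promoters from RefSeq on GRCm38.p6.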

Additional observations from a re-analysis of the deposited data

Results flagged for a closer look

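The cells with no more than 124 CD117 counts were compared only briefly above. All of the 12 most increased genes were above control in them too. The log2 ratio of the Mll3-deleted library to control in those cells was 5.18 for Igkc, 2.17 for Phlda2, 1.64 for Lyrm7, 1.74 for Hist1h2ap and 2.76 for Pttg1. It was 1.53 for Hspa1a, 1.62 for Hspa1b, 0.76 for Prss50, 1.07 for Gstp1, 0.91 for Wdfy1, 0.89 for Arhgdig and 1.52 for Ighm. How many cells carried the Igkc and Ighm UMIs there was not counted. Among CD117-high cells of the Mll3-deleted library, 1 cell held 88.0% of the Igkc and 40.9% of the Ighm UMIs. Pttg1 was further from control in these cells than in the CD117-high cells (1.703), and Prss50 was nearer (1.22 in the CD117-high cells).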

How the results depend on the processing

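No paired analysis was possible because each group has 1 library. Of 46 gene ratios under 17 alternatives, none of those past 1.5-fold changed sign. Ratios near 0 did so for Dpy30 (-0.044 to 0.116), Rbbp5 (-0.025 to 0.096), Ncoa6 (-0.106 to 0.031) and Ash2l (-0.049 to 0.042). The number of lower genes, 164, became 294 with a minimum of 1 CPM, 43 with 20 CPM, 73 with a pseudocount of 5 CPM and 264 within hashtag 1. The number of higher genes, 42, became 81 and 20 with these minimums. In every gate, lower genes went from 25 to 53 and 8 with these minimums, 15 with a pseudocount of 5 CPM and 14 within hashtag 2, and higher genes from 19 to 10 at 20 CPM. Leaving out B220-positive cells, chosen after seeing the data, gave 41 higher and 165 lower genes. Kmt2c was at -0.80 with TMM and with each cell weighted equally, -0.78 with a pseudocount of 5 CPM, -1.19 within hashtag 1 and -0.51 within hashtag 2.

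TMM moved list medians to -0.23 (megakaryocyte), -0.054 (primary granule), -0.62 (mast cell), 0.28 (heat shock) and -0.22 (homing). Equal weight per cell gave 0.26 for erythroid, -0.024 for primary granule and -0.58 for mast cell genes. A pseudocount of 5 CPM gave -0.51 for mast cell and -0.33 for immediate early genes. A minimum of 1 CPM gave -0.39 for immediate early genes, and one of 20 CPM gave -0.31 for stem cell, -0.38 for mast cell, -0.29 for immediate early and 0.13 for heat shock genes. With CD117 at 250 counts, primary granule and mast cell medians were -0.30 and -0.61. With CD117 at 60 counts or the same share of cells passing, homing was -0.46 and -0.41, dendritic genes turned to -0.17 and -0.13 and MHC class II genes to -0.23 and -0.15. At most 5% mitochondrial UMIs gave -0.17 for primary granule and -0.58 for mast cell genes. Removing cells with both hashtags, or the 5% with most UMIs, gave -0.17 and -0.16 for primary granule genes, and the latter 0.23 for erythroid genes. Within hashtag 1 the medians were -0.22 (stem cell), -0.36 (megakaryocyte), 0.039 (erythroid), -0.18 (primary granule) and -0.57 (homing), and dendritic (-0.089) and MHC class II genes (-0.031) reversed. Within hashtag 2 they were -0.19 (megakaryocyte), 0.23 (erythroid), -0.16 (primary granule), -0.49 (mast cell), -0.19 (immediate early) and 0.10 (heat shock), and late neutrophil genes reversed to 0.46. Weighting gates as in control gave -0.030 (stem cell), 0.18 (megakaryocyte, reversed), 0.073 (erythroid), -0.17 (primary granule), -0.40 (immediate early) and 0.19 (heat shock).

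Log2 ratios of gate shares moved as follows. The Sca-1+ gate was at 0.014 within hashtag 1 and -0.042 with thresholds fitted per library, a reversal. CD16/32+ cells were at -0.18 with CD117 at 250 counts. CD41+ cells stayed lower under all alternatives, at -0.70 within hashtag 2 and -0.75 with thresholds per library. CD150+ cells were at 0.64 with CD117 at 250 counts, 0.40 within hashtag 1 and -0.042 within hashtag 2. CD150- cells were at 0.37 within hashtag 1, 0.38 with thresholds per library, 0.079 and 0.34 with thresholds 1.5 times higher and lower, and 0.070 with antibody counts scaled to a common total. For the share above the CD48 threshold the ratio, -0.21, was -0.28 within hashtag 2, -0.083 with thresholds per library, -0.31 and -0.14 with higher and lower thresholds and -0.14 with scaled counts. The CD41 share was at -1.17 and -0.32 within hashtags 1 and 2 and -0.57 with scaled counts. The CD34 share was at -0.12 with CD117 at 250 counts, 0.14 with the same share of cells passing, -0.14 with thresholds per library and 0.15 with higher thresholds. Apart from fewer genes or cells entering, the cause of these shifts was not tested. With 1 library per group, the spread between animals limits every comparison and could not be measured.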
